A study of Sus scrofa with 32 samples.

Results

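Erythropoietin (EPO), the hormone that drives red cell formation, and its receptor (EPOR) were followed in the liver of fetal pigs through gestation. The array annotation gave exactly 1 of these symbols to 5 of the 24123 probe sets, and all 5 were taken. EPO was read by 1 probe set. EPOR was read by 4, of which 1 lies outside the array's control set and 3 are control probe sets for the 3′, middle and 5′ parts of the transcript. RNA of 32 liver samples from Pietrain fetuses was hybridised to 1 array each. The dams received a control diet or a methyl-enriched diet in gestation, and livers were taken at 35, 63 or 91 days post coitum (dpc). There were 5 arrays of each diet at 35 dpc, 6 of each at 63 dpc and 5 of each at 91 dpc. The design text gives 5 to 6 gilts at each stage, and no label links an array to its dam, litter or sex. The p-values therefore measure only the spread between these samples, and are too small wherever arrays share a dam. No composition of either diet is given in the sources used here.

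Before birth, erythropoietin is made largely in the liver, and the kidney takes over as the main source later in development. The hormone binds a receptor dimer on erythroid progenitors, which activates the kinase JAK2 and then the transcription factors STAT5A and STAT5B, and so keeps these cells alive while they divide and fill with haemoglobin. Fetal liver is the main blood-forming organ in mid gestation and later hands this task to the bone marrow. Transcription of EPO rises when oxygen is low, through hypoxia-inducible factors.

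Values are log2 signals as deposited, where a difference of 1 is a doubling. They ran from 2.20 to 16.6, and 26.1% of them lay at the minimum. A probe set was called near background where its value was close to the array's 40th percentile, which lay between 2.74 and 2.93. Hepatocyte markers were present throughout: of 22 hepatocyte markers on the array 21 were measured, and albumin (ALB) averaged 11.4, 14.8 and 15.3 at the 3 ages. None of the 9 lymphocyte markers on the array passed the filter on low values. The arrays fell into 2 technical sets by the gap between the hybridisation control probe sets bioC and bioB. This gap was 1.33 to 1.97 in 18 arrays (high-gap) and -0.05 to 0.40 in 14 arrays (low-gap). Each diet had 3 high-gap arrays at every age, and 2, 3 and 2 low-gap arrays at 35, 63 and 91 dpc, so the sets do not follow diet or age. In whole liver RNA, fewer cells of a type and less RNA per cell cannot be told apart.

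The comparison of ages asked when in gestation the ligand and the receptor change. EPO was high only at the first age. In control livers at 35 dpc it read 6.07, 3.69, 6.67, 7.11 and 6.13 in replicates 1 to 5. In livers of the methyl-enriched diet it read 7.08, 6.53, 6.47, 6.13 and 6.10. Replicate 2 of the control diet stood far below the other 9 arrays of that age, which lay between 6.07 and 7.11.

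At 63 dpc EPO had dropped to a low level in both diets. Control replicates 1 to 6 read 4.48, 4.65, 3.32, 3.37, 3.15 and 3.37. Replicates of the methyl-enriched diet read 3.05, 3.76, 3.37, 3.41, 3.11 and 3.37. The highest of the 12 values, 4.65, lay below 9 of the 10 values at 35 dpc, and the low control array at 35 dpc lay among them.

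At 91 dpc EPO was close to background. Control replicates read 3.01, 2.93, 3.02, 3.37 and 2.92, and those of the methyl-enriched diet 2.86, 3.01, 2.85, 4.18 and 2.21. Replicate 5 of the methyl-enriched diet lay below its array's 40th percentile, and replicate 4 was the only array of this age above 4. The median position of EPO among the probe sets of an array moved from the 70.0th percentile at 35 dpc to the 45.5th at 63 dpc and the 41.2nd at 91 dpc.

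The mean EPO signal was 6.20 ± 0.96 (SD, n = 10) at 35 dpc, 3.54 ± 0.51 (n = 12) at 63 dpc and 3.04 ± 0.49 (n = 10) at 91 dpc. From 35 to 63 dpc EPO fell 6.33-fold (log2 difference -2.66 ± 0.28 SE, limma adjusted p = 5.49e-09). Of the 15327 probe sets tested, 28% were called lower in this interval, so a fall as such was common. Among 5594 genes, however, only 8 had a more negative difference. From 63 to 91 dpc the difference was -0.50 ± 0.28, with a 95% interval of -1.07 to 0.07, and did not pass the test (limma adjusted p = 0.125), where 29% of probe sets were called lower. Over the whole span EPO fell 8.95-fold (-3.16 ± 0.29, limma adjusted p = 3.58e-11), or 8.58-fold with the array below its 40th percentile raised to it. In that span 39.1% of probe sets were called lower.

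The early fall of EPO was present in each diet, which use separate arrays. It was -2.21 ± 0.39 in control livers (limma adjusted p = 8.31e-05; 19.5% of probe sets called lower) and -3.12 ± 0.39 in livers of the methyl-enriched diet (limma adjusted p = 5.96e-07; 22.1% called lower). The call was lost in control livers with the low-gap arrays alone (-1.67, limma adjusted p = 0.225), and in both diets with the mean of the hepatocyte markers as a covariate (-1.60 and -2.32, limma adjusted p = 0.192 and 0.201). In the high-gap arrays EPO differed by -2.80 between 35 and 63 dpc, and in the low-gap arrays by -2.41. Without control replicate 2 at 35 dpc the difference over both diets was -2.94. The later interval was less settled. It was -0.81 in the high-gap arrays (limma adjusted p = 0.00586 in a fit of those arrays alone) and -0.08 in the low-gap arrays. It passed the test in a fit without that control array at 35 dpc (limma adjusted p = 0.0347). That array is not among those compared in this interval. The difference stayed at -0.50, and its SE went from 0.28 to 0.20, since all groups share 1 estimate of the spread. The later interval also passed without replicate 4 of the methyl-enriched diet at 91 dpc (-0.64, limma adjusted p = 0.0441).

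EPOR kept a high signal for longer than EPO. In control livers at 35 dpc the probe set outside the control set read 10.45, 10.36, 10.37, 10.53 and 10.11. In livers of the methyl-enriched diet it read 10.81, 10.22, 10.44, 10.42 and 10.01. The 10 arrays of this age lay within less than 1 unit of each other, and the control array with low EPO lay among them.

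At 63 dpc control replicates read 9.79, 9.88, 9.34, 9.52, 9.15 and 9.35 for EPOR, and those of the methyl-enriched diet 9.20, 9.09, 9.40, 9.30, 9.68 and 9.64. At 91 dpc control replicates read 7.20, 6.67, 7.01, 7.49 and 7.66, and those of the methyl-enriched diet 7.68, 6.49, 6.37, 7.17 and 6.94. Every array at 63 dpc lay below every array at 35 dpc, and every array at 91 dpc lay below every array at 63 dpc. Such a complete separation downward was seen for 4.99% of probe sets tested in the first interval and 6.94% in the second.

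The mean EPOR signal was 10.4 ± 0.22 (SD, n = 10), 9.45 ± 0.26 (n = 12) and 7.07 ± 0.46 (n = 10) at 35, 63 and 91 dpc. EPOR fell 1.90-fold from 35 to 63 dpc (log2 difference -0.93 ± 0.14 SE, limma adjusted p = 1.74e-06), where 393 of 5594 genes had a more negative difference. EPOR fell 5.20-fold from 63 to 91 dpc (-2.38 ± 0.14, limma adjusted p = 2.96e-14), and only 13 of 5594 genes had a more negative difference in that interval. Over the whole span the fall was 9.87-fold (-3.30 ± 0.15, limma adjusted p = 5.30e-18). The falls were of like size in control livers (-0.86 ± 0.20 and -2.30 ± 0.20) and in livers of the methyl-enriched diet (-0.99 ± 0.20 and -2.46 ± 0.20). By technical set they were -0.95 and -2.27 (high-gap) and -0.91 and -2.52 (low-gap).

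**Figure D1:**
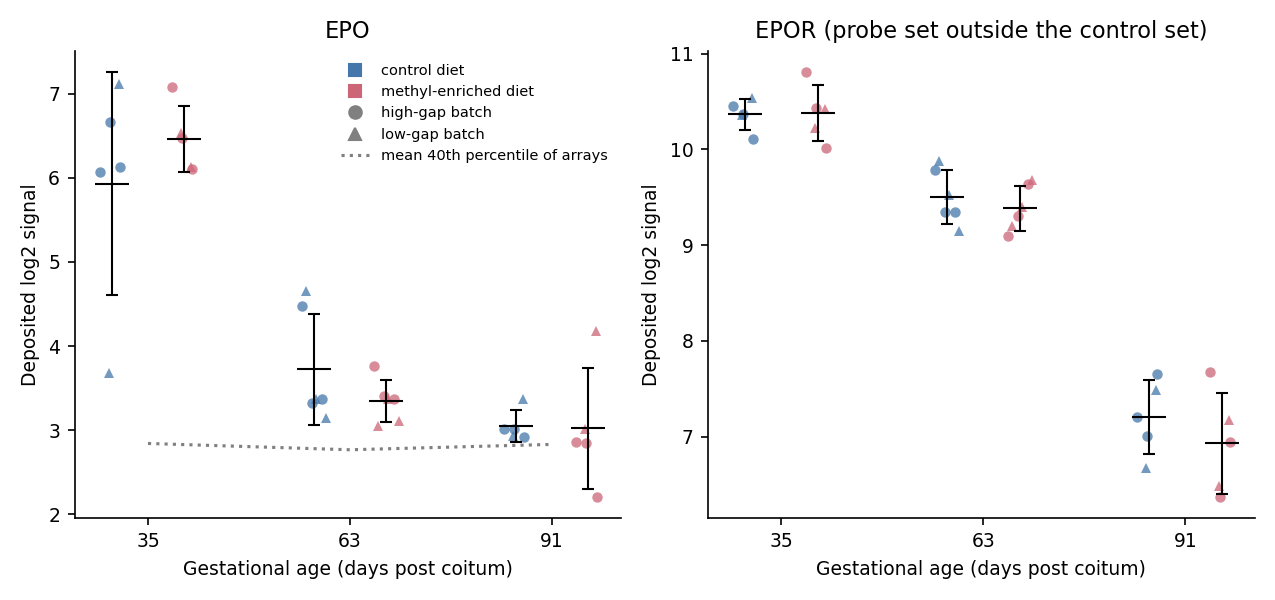
Deposited log2 signal of EPO (left) and of the EPOR probe set outside the control set (right) in each of the 32 arrays, by gestational age in dpc and diet; circles are high-gap and triangles low-gap arrays, black bars the mean ± SD of 5 or 6 arrays, and the dotted line the mean 40th percentile of the arrays. EPO drops mainly between 35 and 63 dpc to means of 3.54 and then 3.04, with 1 control array at 3.69 at 35 dpc, while EPOR drops mainly between 63 and 91 dpc, from 9.45 to 7.07.

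The larger fall was the earlier one for EPO and the later one for EPOR. The ligand and the receptor were not tested against each other. Each was tested alone in the same fit, as the later change minus the earlier change. For EPO this was 2.16 ± 0.48 (limma adjusted p = 0.00227), the larger fall being the earlier one, and 4.7% of probe sets were called in this direction. For EPOR it was -1.45 ± 0.24 (limma adjusted p = 9.05e-05), the larger fall being the later one, and 8.31% were called in that direction. At 63 dpc the mean of EPO already lay within 1 unit of the 40th percentile of the arrays. With little room left to fall, the test for EPO cannot separate an earlier timing from a floor. The test was not passed in the low-gap arrays alone (2.33 for EPO, limma adjusted p = 0.278; -1.61 for EPOR, limma adjusted p = 0.0567). It was also lost with the mean of the erythroid markers as a covariate, which brought EPOR from -1.45 to -0.43 (limma adjusted p = 0.447) and EPO to 2.10 (limma adjusted p = 0.113). For EPO it was lost with the mean of the hepatocyte markers too (1.76, limma adjusted p = 0.122).

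The 3 control probe sets gave a second view of EPOR, from separate positions on the transcript. They were tested in a fit with these probe sets added. From 35 to 63 dpc the log2 difference was -0.97 ± 0.12 for the 3′ probe set (limma adjusted p = 6.08e-08), -1.25 ± 0.20 for the middle one (limma adjusted p = 5.92e-06) and -0.85 ± 0.24 for the 5′ one (limma adjusted p = 0.00305). From 63 to 91 dpc the differences were -1.82 ± 0.12, -1.91 ± 0.20 and -1.60 ± 0.24 (limma adjusted p = 2.22e-13, 4.49e-09 and 1.49e-06). All 4 EPOR probe sets were thus called lower in both intervals. Of the 15327 probe sets tested without the 3 control ones, 28% and 29% were called lower in these intervals. The later change was larger than the earlier one by the test for the 3′ probe set (-0.85 ± 0.20, limma adjusted p = 0.00389). For the middle (-0.66 ± 0.35, limma adjusted p = 0.231) and 5′ probe sets (-0.75 ± 0.41, limma adjusted p = 0.245) the test was not passed.

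Arrays of neighbouring ages did not overlap for the 3′ probe set. Its means were 9.95 ± 0.26 (SD, n = 10), 8.98 ± 0.28 (n = 12) and 7.16 ± 0.24 (n = 10). The middle probe set, at 8.18 ± 0.42, 6.93 ± 0.55 and 5.02 ± 0.42, overlapped between 35 and 63 dpc, and the 5′ probe set, at 6.48 ± 0.48, 5.63 ± 0.63 and 4.03 ± 0.55, in both intervals. In the high-gap arrays the 5′ probe set lay lower at every age (6.18, 5.21 and 3.69) than in the low-gap arrays (6.92, 6.05 and 4.53). The 3′ minus 5′ gap of EPOR averaged 3.65 in the high-gap set and 2.90 in the low-gap set. By age this gap was 3.47 ± 0.45, 3.35 ± 0.45 and 3.13 ± 0.55, and no pair of ages passed a two-sided permutation test that ignores the technical set (smallest p = 0.150, Benjamini-Hochberg adjusted 0.225 over 6 tests). With ages permuted within the technical sets, the gap was smaller at 91 dpc than at 35 dpc (-0.34, permutation p = 0.0237, adjusted 0.0356) and than at 63 dpc (-0.30, permutation p = 0.0402, adjusted 0.0482). Between 35 and 63 dpc it differed by -0.05 (permutation p = 0.670). At 91 dpc the 5′ probe set lay at the 43.9th to 55.6th percentile of its arrays, nearer to the 40th than before. Whether background narrowed the gap at that age was not tested.

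**Figure D2:**
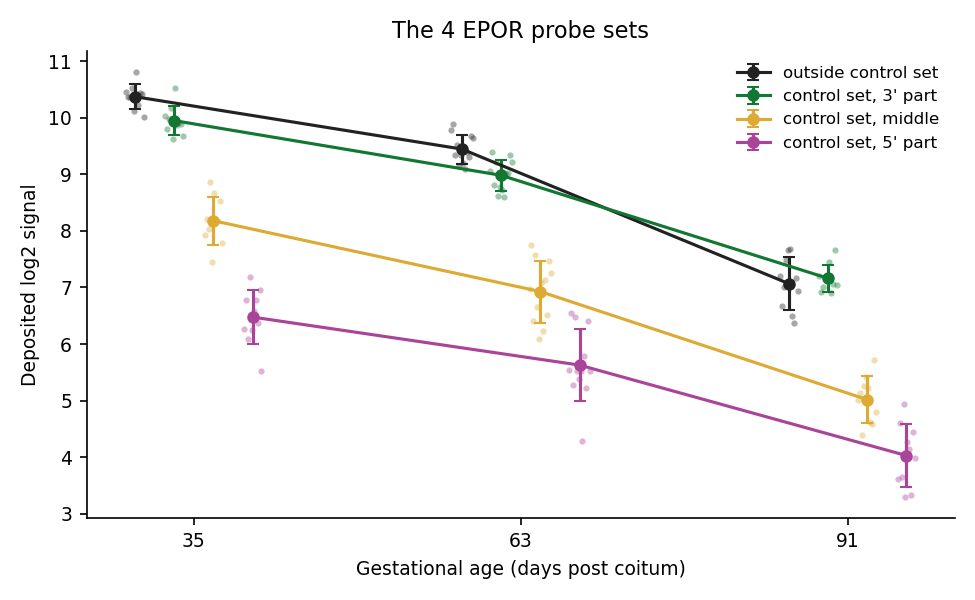
Deposited log2 signal of the 4 EPOR probe sets by gestational age in dpc; small points are the 32 arrays, large points and bars the mean ± SD over 10, 12 and 10 arrays. All 4 lines go down in both intervals, with differences from -0.85 to -1.25 in the first and from -1.60 to -2.38 in the second; the vertical order of the lines compares different probes and carries no meaning.

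The comparison of diets asked whether the dam's methyl supply changed either gene. Neither was called at any age. EPO was 0.53 ± 0.41 higher with the methyl-enriched diet at 35 dpc (95% interval -0.31 to 1.37, limma adjusted p = 0.930), and the difference was -0.03 without control replicate 2. At 63 dpc it was -0.38 ± 0.38 (-1.15 to 0.39) and at 91 dpc -0.03 ± 0.41. EPOR differed by 0.02 ± 0.21 (-0.40 to 0.43), -0.12 ± 0.19 (-0.50 to 0.26) and -0.28 ± 0.21 (-0.69 to 0.14). The arrays of the diets overlapped in every one of these comparisons.

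Exact two-sided permutation tests within an age gave p = 0.571, 0.286 and 0.881 for EPO and 0.929, 0.448 and 0.333 for EPOR at 35, 63 and 91 dpc. The smallest values these tests can give are 0.00794 with 5 against 5 arrays and 0.00216 with 6 against 6. The change with age was not called different between diets for EPO (limma F test across all probe sets, unadjusted p = 0.278) or for EPOR (unadjusted p = 0.611 by the same limma fit). Both had an adjusted p of 1. Over all probe sets, limma called 0.0391% for diet at 35 dpc, 0 at 63 dpc and 0.0718% at 91 dpc, and the F test called 0. At an unadjusted p under 0.05 it gave 933, 219 and 1000 probe sets for diet and 660 for the F test. The intervals of EPO reach beyond a doubling at 35 and 63 dpc, so a diet difference of that size is not excluded at those ages. At 91 dpc EPO lay close to background, so its interval there (-0.87 to 0.81) cannot exclude one either.

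Ordered by mean, EPO ran from the methyl-enriched diet at 35 dpc (6.46 ± 0.39) and control at 35 dpc (5.93 ± 1.33) to control at 63 dpc (3.72 ± 0.66) and the methyl-enriched diet at 63 dpc (3.35 ± 0.25). Control (3.05 ± 0.19) and the methyl-enriched diet (3.02 ± 0.72) at 91 dpc came last. Neighbours in this order overlapped throughout, at the step from 35 to 63 dpc through the low control array alone. For EPOR both diets shared 10.4 at 35 dpc, followed by 9.50 ± 0.28 and 9.39 ± 0.24 at 63 dpc and 7.21 ± 0.39 and 6.93 ± 0.53 at 91 dpc, control first. There, neighbours of the same age overlapped and those of different age did not. Whole ages were separated downward for 4.99% of probe sets tested between 35 and 63 dpc and for 6.94% between 63 and 91 dpc.

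The genes that carry the receptor's signal mostly went down with it, with JAK2 going the other way. Of 13 measured genes of EPO receptor signalling, EPOR itself not among them, 8 fell and 2 rose between 35 and 63 dpc, and 10 fell and 1 rose between 63 and 91 dpc. Over all 5594 genes, 38.5% fell and 30.4% rose in the first interval, and 39.8% fell and 22.6% rose in the second. The list's median log2 differences were -0.39 and -0.66, against -0.09 and -0.14 over all genes. These lists were chosen with earlier results known and the counts are a description.

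STAT5A, which enters the nucleus after the receptor is engaged, fell in both intervals (-1.03 ± 0.16 and -1.75 ± 0.16 on the log2 scale; limma adjusted p = 1.86e-06 and 1.21e-10). Its close relative STAT5B fell in both intervals (-0.97 ± 0.12 and -1.18 ± 0.12). Second, dimmer probe sets gave smaller differences, -0.92 and -0.90 for STAT5A and -0.49 and -0.38 for STAT5B. The adaptor SHC1 fell in both intervals (-0.92 ± 0.17 and -0.80 ± 0.17) and so did the adaptor CRKL (-0.38 ± 0.09 and -0.66 ± 0.09). Phospholipase PLCG1 fell in both intervals (-0.39 ± 0.12 and -0.78 ± 0.12). The kinase MAPK3 fell by 0.87 ± 0.16 in the first interval, and differed by -0.30 ± 0.16 in the second (limma adjusted p = 0.103). JAK2, the kinase bound to the receptor and to several other cytokine receptors, rose by 1.45 ± 0.31 and then by 1.08 ± 0.31 (limma adjusted p = 0.000218 and 0.00377). A second, dimmer JAK2 probe set differed by 0.34 and 0.67.

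Genes that end the signal did not move as a block. Of 6 measured, 1 rose and 1 fell in the first interval, and 1 rose and 2 fell in the second. Among all genes 30.4% rose and 38.5% fell in the first interval, and 22.6% rose and 39.8% fell in the second. SOCS1, which inhibits JAK kinases, fell by 0.87 ± 0.17 between 35 and 63 dpc and was near background at 91 dpc (mean 3.06). The ubiquitin ligase CBLB rose by 1.01 ± 0.22 between 63 and 91 dpc. The phosphatase DUSP6 rose by 0.54 ± 0.14 and then fell by 0.64 ± 0.14. PTPN1, another phosphatase, differed by -0.15 ± 0.11 and -0.09 ± 0.11 and was not called. SOCS3 was on the array but did not pass the filter.

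Of 10 measured genes known to respond to EPO, 3 rose and 3 fell between 35 and 63 dpc, and 2 rose and 6 fell between 63 and 91 dpc. The first counts, 30% each, were near the shares of all genes, of which 30.4% rose and 38.5% fell. In the second interval 20% rose and 60% fell, where 22.6% of all genes rose and 39.8% fell. BCL2L1, whose product keeps erythroid progenitors alive, fell in both intervals (-1.67 ± 0.18 and -2.21 ± 0.18; limma adjusted p = 7.74e-09 and 1.83e-11), with -1.39 and -0.57 in a second, dimmer probe set. The survival kinase PIM2 fell in both intervals (-2.24 ± 0.17 and -1.78 ± 0.17). The cyclin CCND2 fell in both intervals (-0.82 ± 0.18 and -1.37 ± 0.18). MYC differed by -0.10 ± 0.10 in the first interval and fell by 0.97 ± 0.10 in the second. EGR1, an immediate early gene of many stimuli, rose by 2.24 ± 0.38 and 1.60 ± 0.38, with differences down to 0.20 and 0.71 in its other kept probe sets. The transferrin receptor TFRC differed by 0.02 ± 0.59 and -1.31 ± 0.59 and was not called (limma adjusted p = 0.0577 in the second interval).

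**Figure D3:**
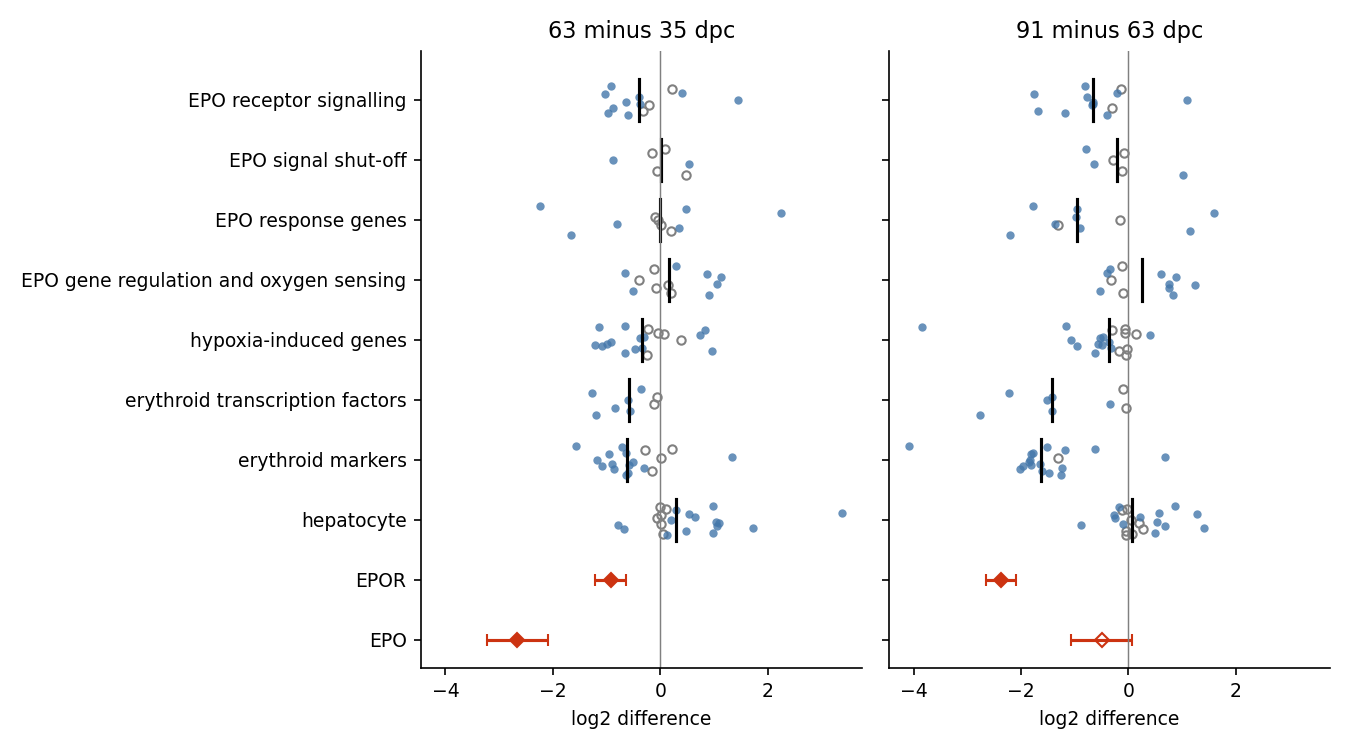
Log2 difference of each measured gene (brightest probe set per gene) of 8 lists, and of EPOR and EPO, between 35 and 63 dpc (left) and between 63 and 91 dpc (right); filled points passed limma's test at an adjusted p under 0.05, open points did not, black ticks are list medians and red bars 95% intervals. EPO (-2.66) lies left of every listed gene in the first interval; in the second only SLC2A1 (-3.84), HBE1 (-4.08) and BCL11A (-2.76) lie left of EPOR (-2.38).

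Regulators of the EPO gene and the oxygen-sensing machinery went in both directions, with more rising than falling. In the first interval 41.7% rose and 16.7% fell, where 30.4% of all genes rose and 38.5% fell. In the second 50% rose and 25% fell, where 22.6% of all genes rose and 39.8% fell. Of 12 measured genes, 5 rose and 2 fell between 35 and 63 dpc, and 6 rose and 3 fell between 63 and 91 dpc, with median differences of 0.17 and 0.25, against -0.09 and -0.14 over all genes. EPAS1, which encodes the hypoxia-inducible factor subunit HIF-2 alpha that acts on EPO, averaged 7.34, 6.95 and 6.62 at the 3 ages. Its differences of -0.39 ± 0.17 and -0.33 ± 0.17 did not pass the test (limma adjusted p = 0.0512 and 0.101). HIF1A, its relative, rose by 1.13 ± 0.17 and 0.89 ± 0.17, with 0.40 and 0.01 in a second, dimmer probe set. Of the prolyl hydroxylases that mark both proteins for breakdown in the presence of oxygen, EGLN1 rose by 1.05 ± 0.21 and 0.76 ± 0.21, and EGLN2 fell in both intervals (-0.66 ± 0.10 and -0.39 ± 0.10). Other kept probe sets of EGLN1 went down to 0.15 and 0.12. ELOB, a subunit of the ligase that removes these factors, fell in both intervals (-0.51 ± 0.10 and -0.53 ± 0.10).

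HNF4A, a liver factor that activates EPO transcription, rose by 0.30 ± 0.09 in the first interval and differed by -0.12 ± 0.09 in the second (-0.39 in a second, dimmer probe set). GATA4, reported to sustain EPO transcription in fetal liver, differed by -0.08 ± 0.16 in the first interval and rose by 0.75 ± 0.16 in the second. NR2F2, an orphan receptor that can compete with HNF4A for DNA, rose by 0.87 ± 0.13 and 0.60 ± 0.13 (down to 0.35 and 0.19 in its other kept probe sets). Its relative NR2F1 rose by 1.24 ± 0.11 in the second interval. GATA2, which can repress EPO, averaged 3.54, 3.43 and 3.09, close to background. Another 6 genes of this list, ARNT among them, were on the array but did not pass the filter. All these are RNA levels, and the proteins of the oxygen-sensing pathway are controlled mainly by breakdown.

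Genes induced by low oxygen, like all genes, fell more often than they rose. Of 19 measured, 11 fell and 3 rose between 35 and 63 dpc, and 11 fell and 1 rose between 63 and 91 dpc, with median differences of -0.34 and -0.36. That is 57.9% falling in each interval, where 38.5% and 39.8% of all genes fell. SLC2A1, the glucose transporter also abundant in fetal red cells, fell in both intervals (-1.15 ± 0.20 and -3.84 ± 0.20). HMOX1, which breaks down haem, fell in both intervals (-1.22 ± 0.11 and -0.49 ± 0.11). The glycolytic genes TPI1 and ALDOC fell in the first interval (-1.09 ± 0.13 and -0.99 ± 0.14). VEGFA, the vascular growth factor, went the other way and rose by 0.75 ± 0.14 and 0.40 ± 0.14.

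Most red cell genes fell in each interval. Of 18 measured erythroid markers, 13 fell and 1 rose in the first interval and 16 fell and 1 rose in the second, with median differences of -0.62 and -1.62. That is 72.2% and 88.9% falling, where 38.5% and 39.8% of all genes fell. The later difference was the lower one in 18 of 18. The median over all genes was also lower in the later interval (-0.14, against -0.09 in the earlier one). The share of all genes with a lower later difference was not taken, so the count is a description only. This count of 18 includes HBB, a globin, which rose in both intervals but less in the second (1.34 ± 0.24 and 0.68 ± 0.24). HBB is named here after its values were seen. HBE1, embryonic globin, fell in both intervals (-1.56 ± 0.21 and -4.08 ± 0.21). UROD and ALAD, haem synthesis enzymes, fell in the first interval (-1.09 ± 0.14 and -0.90 ± 0.12) and in the second (-1.97 ± 0.14 and -1.64 ± 0.12). Of 8 erythroid transcription factors 6 fell in each interval (75%) and 0 rose, where 38.5% and 39.8% of all genes fell. KLF1, the factor that switches on many red cell genes, fell in both intervals (-1.27 ± 0.18 and -2.23 ± 0.18). BCL11A, a repressor of embryonic and fetal globins, also fell in both (-1.19 ± 0.16 and -2.76 ± 0.16).

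The mean of the 18 erythroid markers was 11.4 ± 0.14 (SD, n = 10), 10.8 ± 0.12 (n = 12) and 9.27 ± 0.40 (n = 10) at the 3 ages. EPOR differed more between ages than this mean. Single markers ranged widely: 4 of the 18 had a more negative difference than EPOR between 35 and 63 dpc, and 1, HBE1, between 63 and 91 dpc, so a larger fall than the mean was not particular to EPOR. EPOR minus the erythroid mean was -0.99 ± 0.22 at 35 dpc, -1.40 ± 0.21 at 63 dpc and -2.20 ± 0.26 at 91 dpc. The difference between 35 and 63 dpc was -0.40 (two-sided permutation p = 0.00012, Benjamini-Hochberg adjusted 0.00024), and between 63 and 91 dpc -0.80 (permutation p = 1e-05, the smallest that 100000 resamples can give). The same order held within the high-gap arrays (-0.93, -1.37 and -2.14) and the low-gap arrays (-1.09, -1.42 and -2.29). With the erythroid mean as a covariate, EPOR differed by -0.42 between 35 and 63 dpc and by -0.85 between 63 and 91 dpc, and the latter no longer passed the test (limma adjusted p = 0.0698). That fit called 773 probe sets between 63 and 91 dpc in place of 8963.

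Within an age, EPOR followed the erythroid mean most closely at 91 dpc (Pearson r = 0.827, permutation p = 0.0048; Spearman rho = 0.794, permutation p = 0.00882). After Benjamini-Hochberg adjustment over 12 relations these were 0.0576 and 0.106, so the relation did not pass. It was 0.761 without the 2 arrays farthest from the median and 0.745 in the 6 high-gap arrays. At 35 and 63 dpc r was 0.369 and 0.603 (permutation p = 0.288 and 0.0381, adjusted 0.544 and 0.119). EPO and EPOR had r = 0.294, 0.608 and 0.179 at the 3 ages (permutation p = 0.363, 0.0335 and 0.655). The value at 63 dpc rested on the 2 arrays farthest from the median, without which r was -0.24, and none passed adjustment (smallest adjusted p = 0.119).

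**Figure D4:**
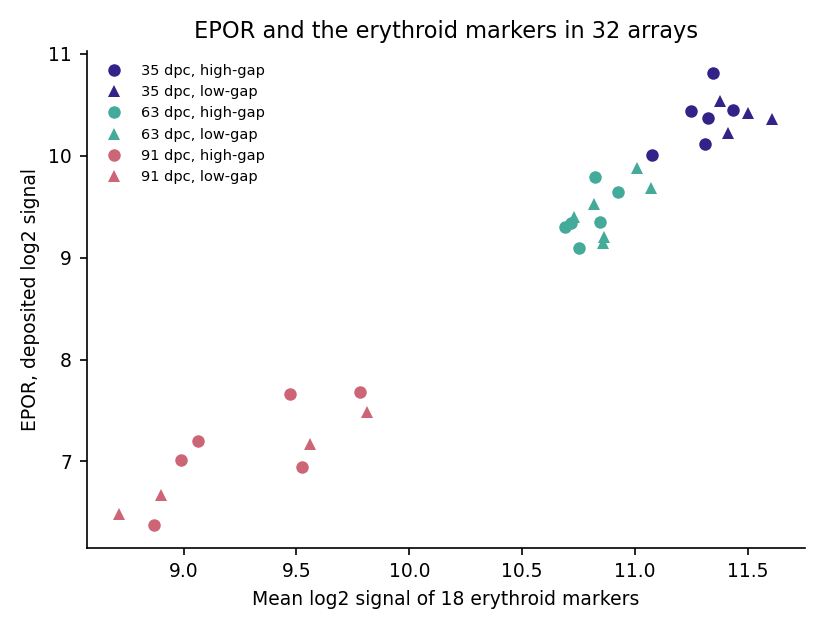
EPOR (probe set outside the control set) against the mean of 18 erythroid markers, both as log2 signal, in the 32 arrays; colours are ages in dpc, circles high-gap and triangles low-gap arrays. The 3 ages form separate clusters, and the 10 arrays at 91 dpc spread along both axes, with EPOR from 6.37 to 7.68 and the erythroid mean from 8.71 to 9.81.

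Markers of other cells moved with these changes too, and their part in them was not tested beyond the fits given here. The mean of the 21 hepatocyte markers was 13.3 ± 0.15, 13.8 ± 0.08 and 14.0 ± 0.06 at the 3 ages. With this mean as a covariate, EPO differed by -1.96 between 35 and 63 dpc and EPOR by -0.80, and neither passed the test (limma adjusted p = 0.135 and 0.212). That fit called 192 probe sets in this interval in place of 9278. Of 18 cell cycle genes, 11 fell and 2 rose in the first interval and 16 fell and 0 rose in the second. Granulocyte genes took another course, 6 of 6 rising and then 6 of 6 falling. The mean of 11 macrophage and Kupffer cell genes was 7.48 ± 0.26, 7.87 ± 0.22 and 8.78 ± 0.16 at the 3 ages, and 7 of them were called higher and 0 lower at 91 than at 35 dpc. Over all genes, 33.6% were called higher and 50.1% lower in that comparison. Of 5 megakaryocyte genes 1 rose in the first interval and all fell in the second. Among all genes, 38.5% fell and 30.4% rose in the first interval, and 39.8% fell and 22.6% rose in the second.

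Cells of the kidney, adrenal and gonad, which lie near the liver in a small fetus and of which the kidney also makes EPO, were looked for with 17 markers. Of these 7 were on the array and 3 were measured. HSD3B1, a steroid enzyme, fell by 0.92 ± 0.17 between 35 and 63 dpc (means 4.08, 3.17 and 3.13), and NR5A1, a factor of adrenal and gonad, fell by 0.36 ± 0.12. INHA, an inhibin subunit, averaged 4.64, 4.64 and 4.51 and was not called. CYP17A1, CYP11A1, STAR and INSL3 did not pass the filter, with highest values of 2.56, 2.20, 3.03 and 2.79 in any array. The mean of the 3 measured genes was 4.24 to 5.17 at 35 dpc, 4.12 to 4.60 at 63 dpc and 3.97 to 4.39 at 91 dpc, and its part in the fall of EPO was not tested.

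The control array with low EPO at 35 dpc was not low in EPOR (10.36), nor in the hepatocyte mean (13.4, against 13.0 to 13.4 in the other 9 arrays of that age). Its erythroid mean of 11.6 lay above the other 9 (11.1 to 11.5), and so did its cell cycle mean, 9.80 against 9.44 to 9.79. Its megakaryocyte mean of 8.56 lay below theirs (8.65 to 8.99). Its means of iron genes (11.2, against 10.5 to 11.1) and of stem and progenitor genes (4.14, against 3.67 to 4.12) lay above theirs. The mean of the regulators of EPO and oxygen sensing, 7.04, lay within theirs (6.70 to 7.14).

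Over the 32 arrays, the genes whose profile was most like that of EPOR were GLRX5 (Pearson r = 0.991), UBE2C (0.989), CDCA3 (0.986), ABTB1 (0.985), ASF1B (0.985) and KLF1 (0.984), out of 5593 other genes. The least alike were STEAP4 (-0.956), NOSTRIN (-0.956) and MBNL3 (-0.955). With the mean of each of the 6 groups taken off, ABCB6 (0.946), SLC25A39 (0.845), KLF1 (0.838), MCM5 (0.835), NARF (0.830) and CDCA3 (0.822) were most alike. GLRX5, ABCB6 and SLC25A39 encode mitochondrial proteins linked to haem or iron-sulphur metabolism, and UBE2C, CDCA3, ASF1B and MCM5 are genes of dividing cells. These values share arrays, ages and libraries and are a description.

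For EPO the most alike were CKB (0.933), SMPD1 (0.933), AEBP1 (0.930), CITED1 (0.926), CSRP2 (0.922) and PKMYT1 (0.922), and the least alike ZMYM2 (-0.941), CYB5A (-0.934) and HBP1 (-0.932). CITED1, a transcriptional co-regulator, had a log2 difference of -3.91 in the first interval. With group means taken off, HSPA6 (0.727), NOC2L (0.711), CKB (0.706), ST6GALNAC4 (0.676), IFI35 (0.674) and SLC25A11 (0.670) led. Without the low control array these became 0.738, 0.628, 0.667, 0.538, 0.506 and 0.565, lower for 5 of the 6.

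Genes beside the members in the annotated gene order were taken for their position and not for their values. Of the 4 genes on each side of EPO, POP7 and GNB2 were measured. POP7 differed by -0.04 ± 0.09 and -0.27 ± 0.09 in the 2 intervals and GNB2 by -0.57 ± 0.12 and -0.55 ± 0.12, against -2.66 and -0.50 for EPO. Beside EPOR, SWSAP1, PRKCSH and PLPPR2 were measured. SWSAP1 differed by -0.73 ± 0.13 and -0.69 ± 0.13, PRKCSH by -0.21 ± 0.09 and -0.26 ± 0.09 and PLPPR2 by -0.23 ± 0.08 and 0.01 ± 0.08, against -0.93 and -2.38 for EPOR. These differences between genes were not tested.

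Iron and cytokine genes around the axis showed no common direction. Of 13 iron genes 4 rose and 4 fell in the first interval (30.8% each) and 5 rose and 5 fell in the second (38.5% each). Of all genes 30.4% rose and 38.5% fell in the first interval, and 22.6% rose and 39.8% fell in the second. HAMP, the iron hormone hepcidin that erythropoiesis is known to suppress, averaged 11.5, 11.8 and 11.6 and was not called in either interval. The ferritin genes FTH1 and FTL fell in the first interval (-0.38 ± 0.05 and -0.43 ± 0.04), though a second FTL probe set differed by 1.62. Of 10 haematopoietic cytokine and receptor genes 5 rose and 4 fell (50% and 40%), and then 2 rose and 2 fell (20% each), against the same shares of all genes. KIT, the receptor that acts beside EPOR on early erythroid progenitors, rose by 0.34 ± 0.15 (limma adjusted p = 0.0472) and then fell by 0.91 ± 0.15. CXCL12, which holds blood progenitors in place, rose by 0.75 ± 0.08 and 0.71 ± 0.08 (0.18 and 1.004 in a second, dimmer probe set), while its receptor CXCR4 rose by 0.61 ± 0.09 and then fell by 0.99 ± 0.09. No gene of the lists named here was called for diet at any age.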

How the data were processed

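Each of 32 fetal pig livers gave total RNA for 1 porcine array, in 6 groups of 5 or 6. The deposited table holds log2 signals, 1 per probe set and array; how the authors normalised them is not given in the sources used here, and the submitters' processing notes list GCOS 1.1.1. No further transform was applied. Probe sets above their array's 40th percentile in at least 5 arrays were kept (15327 of 23999, controls set aside; 2 of the 5 members). Group means were fitted with limma 3.58.1 (R 4.3.3; 26 residual degrees of freedom, prior with intensity trend), Benjamini-Hochberg adjusted over all probe sets and called under 0.05. The 3 EPOR control probe sets were tested in a fit with them added. A gene was read by its brightest probe set. By the array annotation, 10099 probe sets carried 1 symbol, 198 several and 13826 none. No sequence was used, and of position only the annotated gene order around EPO and EPOR.

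The members and the 20 lists were chosen with earlier results of these data known. Named are EPO and EPOR, up to 4 genes per list with the smallest p in each interval, 27 genes looked at whatever their p, and the genes most and least alike. Also named are the measured genes among the 4 on each side of EPO and of EPOR in the annotated gene order. The test of the later against the earlier change, EPOR minus the erythroid mean and the 3′ to 5′ gap of EPOR (with and without permuting inside the technical sets) were added after seeing the data. Permutation tests and correlations used scipy 1.17.1. Alternatives covered the prior, filter, quantile normalisation, array weights, technical set, RNA quality, marker means as covariates, probe sets per gene and leaving out each array. The fit was tested on simulated data. The number of arrays limits the precision.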

Additional observations from a re-analysis of the deposited data

Results flagged for a closer look

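Of 30 groups of 5 or 6 arrays (5 probe sets in 6 groups), 2 held an array that stood apart from the rest by Dixon's criterion; chance alone flags about 1 in 20 groups. EPO read 3.37 in control replicate 4 at 91 dpc, above the next highest control array at 3.02. The 3′ probe set of EPOR read 10.5 in replicate 1 of the methyl-enriched diet at 35 dpc, above the next at 9.92, and that array was also the highest of its age for the EPOR probe set outside the control set (10.81). The low EPO value of control replicate 2 at 35 dpc (3.69, next lowest 6.07) did not pass the criterion in its group of 5.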

How the results depend on the processing

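No paired analysis was possible because the labels carry no replicate number or dam shared between groups. The fall of EPOR over the whole span passed under all 15 alternatives. With the erythroid mean as a covariate, EPOR between 63 and 91 dpc was -0.85, and the later minus the earlier change was -0.43 for EPOR (limma adjusted p = 0.447) and 2.10 for EPO (0.113), none past the test. With the hepatocyte mean as a covariate, EPO was -1.96 (63 minus 35 dpc) and -2.17 (91 minus 35 dpc, limma adjusted p = 0.105), its later minus earlier change 1.76, and EPOR -0.80 (63 minus 35 dpc), none past the test. In low-gap arrays alone the later minus earlier change was 2.33 for EPO and -1.61 for EPOR, not past it. EPO between 63 and 91 dpc passed with array weights (-0.55), in high-gap arrays (-0.81) and with the arrays of those ages alone (-0.50). The causes were not tested. Diet differences changed sign without being called: EPO at 91 dpc with quantile normalisation (0.0043), in low-gap arrays (0.44) and with the 3′ to 5′ gap as a covariate (0.033); EPO averaged over ages with array weights (-0.00505) and in high-gap arrays (-0.096); EPOR at 35 dpc in low-gap arrays (-0.13). EPO between 63 and 91 dpc in the methyl-enriched diet was 0.42 in low-gap arrays. Leaving out 1 array at a time, EPO between 63 and 91 dpc ran from -0.64 to -0.40, diet differences of EPO from -0.030 to 0.83 at 35 dpc, from -0.32 to 0.17 at 91 dpc and from -0.15 to 0.14 over ages, and that of EPOR at 35 dpc from -0.092 to 0.11. Probe sets called for diet went from 6 to between 0 and 18 at 35 dpc and from 11 to between 0 and 41 at 91 dpc under the alternatives, and to between 1 and 43 at 91 dpc with 1 array left out. Calls for age fell from 9278, 8963 and 12250 to 3920, 3517 and 4688 when each gene had 1 probe set, to 4798 and 5260 (first 2 comparisons) in low-gap arrays, and for 91 against 35 dpc to 4736 and 3923 with the erythroid and hepatocyte means. Quantile normalisation moved the median of all probe sets between 35 and 91 dpc from 0.00 to -0.15.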

Other observations

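Identical values recurred between arrays. EPO held exactly 3.37416 in 5 arrays: control replicates 4 and 6 and replicates 3 and 6 of the methyl-enriched diet at 63 dpc, and control replicate 4 at 91 dpc. The last is the value that stood apart in its group. The 5′ probe set of EPOR held 5.53253 in 4 arrays, 1 at 35 dpc and 3 at 63 dpc. Of the 15327 probe sets tested, 5492 (35.8%) held some value above 3 that was identical in 3 or more arrays. The step that gives such repeats is not given in the sources used here.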
